A study of Homo sapiens with 11 samples.

Results

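The interval lists of 2 histone marks, H3K4me3 and H3K36me3, were set against each other in WT cells of MDA-MB-231, an established human line from a triple-negative breast cancer. All intervals of both WT lists on chromosomes 1 to 22 and X were taken, 19210 of H3K4me3 and 17507 of H3K36me3, together 36717 of the 229591 intervals in the 10 ChIP lists of the series. For each H3K4me3 interval the gap or overlap to H3K36me3 was measured, together with the number of its sides on which H3K36me3 lay within 10 kb, and each H3K36me3 interval (called a domain below) was searched for H3K4me3 within 10 kb.

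The study asked what happens to histone methylation when the protein mdig (also MINA53 or RIOX2, an oxygenase of the JmjC family) is missing. The KO cells came from CRISPR-Cas9 editing and made no mdig protein, while the WT cells went through the same kind of work and kept it; both were grown in medium with serum and blasticidin. Whether the KO cells are a single clone is not given in the sources used here. Each antibody was used on 1 chromatin sample of KO cells and 1 of WT cells, so nothing is replicated and nothing could be tested, and every value describes these libraries. Confidence intervals given below are 95% Wilson intervals for shares and exact binomial intervals for medians, and cover counting error only.

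H3K4me3 is laid down around the start sites of active genes by methyltransferases of the SET1 and MLL family. H3K36me3 is laid down by SETD2, which travels with elongating RNA polymerase II, and therefore lies over the body of a transcribed gene, downstream of its start. A single active gene has H3K36me3 on only one side of its promoter, a pair of divergent active genes has it on both sides, and a promoter that carries H3K4me3 without productive elongation, or an active enhancer with H3K4me3, may have none. No gene was assigned to an interval, because the lists are on the genome build hg19 and an annotation of that build was not used here.

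The WT lists had the shapes for which these marks are known. H3K4me3 intervals had a median width of 5.40 kb and covered 120.7 Mb, and H3K36me3 domains had a median width of 11.4 kb and covered 327.9 Mb. The middle 80% of widths ran from 1.60 to 11.2 kb for H3K4me3 and from 3.8 to 42.8 kb for H3K36me3. Spaces between neighbouring H3K4me3 intervals had a median of 51.6 kb and those between H3K36me3 domains one of 9.40 kb. The read depth behind the lists is unknown.

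Where the marks met, the edge of H3K36me3 usually fell inside the H3K4me3 interval. Of the 19210 WT H3K4me3 intervals, 7555 overlapped H3K36me3 by at least 1 bp, where 10.8% of all 200-bp windows of the chromosomes lay inside H3K36me3. Among the overlapping intervals 6645, or 88.0% (87.2% to 88.7%), were covered only in part, and 910 lay wholly inside H3K36me3. The overlap had a median length of 4.20 kb (quartiles 2.60 and 6.60 kb), and 40.6 Mb carried both marks. A further 75 intervals touched H3K36me3 without overlap.

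The other 11655 WT H3K4me3 intervals were spread over a wide range of distances from H3K36me3. Their gap to the nearest H3K36me3 edge had a median of 49.4 kb (47.2 to 51.2 kb) with quartiles of 14.4 and 155 kb. Only 681 intervals had a gap under 2 kb and 1562 one of 2 to 10 kb, while 3616 lay at 10 to 50 kb, 3440 at 50 to 200 kb and 2356 at 200 kb or more. Contact with H3K36me3 was thus far more frequent than a short gap, and overlap together with gaps under 10 kb took in 51.0% of the list.

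**Figure D1:**
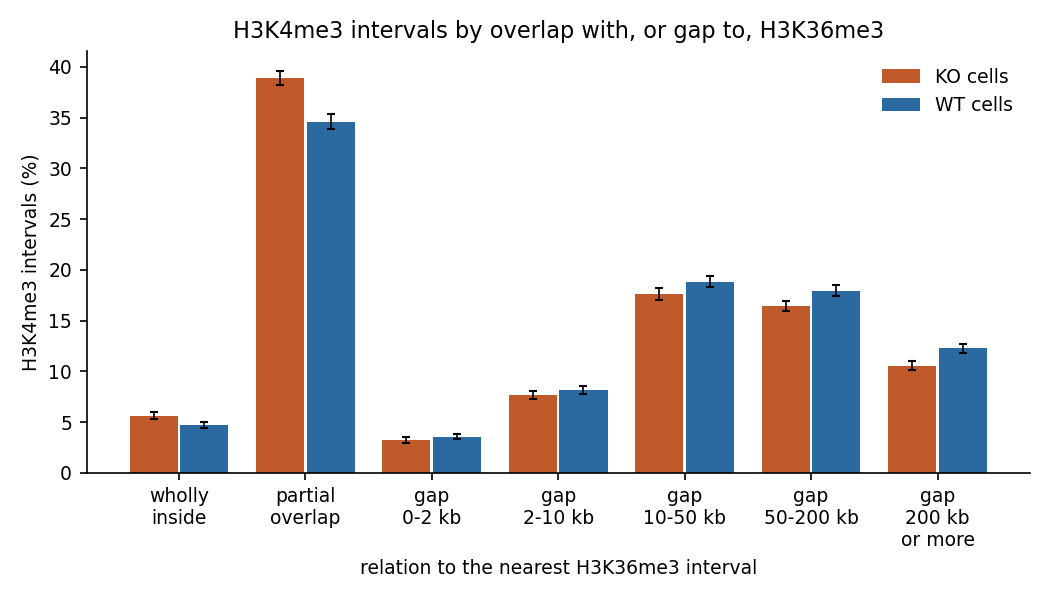
Share of H3K4me3 intervals (%) by their relation to the nearest H3K36me3 interval, with KO cells left of WT cells in each pair; bars start at 0 and error bars are 95% Wilson intervals for counting error. Partial overlap was the most frequent relation, with 38.9% in KO cells and 34.6% in WT cells, and gaps under 2 kb were rare.

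By sides, H3K36me3 within 10 kb lay on both sides of 2984 WT H3K4me3 intervals (15.5%, 15.0% to 16.1%), on 1 side of 6674 (34.7%, 34.1% to 35.4%) and on neither side of 9552 (49.7%, 49.0% to 50.4%). The same count made at every 200-bp window gave 11.9% with H3K36me3 on both sides, 5.13% with it on 1 side and 83.0% with it on neither side. The share of H3K4me3 intervals marked on 1 side was therefore 6.77 times that of windows, and the share marked on both sides 1.31 times. Of the H3K4me3 intervals with H3K36me3 on any side 69.1% had it on 1 side only, against 30.2% of windows. The marked side was the one of lower coordinates in 3308 cases and the one of higher coordinates in 3366 cases, which differed by less than counting error (49.6%, 48.4% to 50.8%).

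The split between 1 and both sides depended on where the interval was taken to end. Measured from the centre of the H3K4me3 interval in place of its edges, 25.8% had H3K36me3 on both sides, 22.8% on 1 side and 51.4% on neither, so that both sides came ahead of 1 side. This way of counting was chosen after the data were seen. The centre lay inside H3K36me3 in 22.3% of intervals. From the centre the share marked on 1 side was 4.44 times that of windows and the share marked on both sides 2.18 times, against 6.77 and 1.31 from the edges. Of the intervals with H3K36me3 on any side 46.9% had it on 1 side only from the centre, against 69.1% from the edges.

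Intervals marked on 1 side had H3K36me3 up to and into the H3K4me3 interval. On the marked side the gap had a median of 0 and an upper quartile of 1.20 kb, while on the other side the nearest H3K36me3 lay at a median of 83.0 kb (78.8 to 88.0 kb, quartiles 32.9 and 262 kb). H3K36me3 overlapped 4658 of the 6674, or 69.8%. In 4460 of these a single domain overlapped the interval and covered only part of it. Whether that domain also reached the marked side was not asked. The covered share had a median of 49.0% (48.4% to 50%) and varied widely between intervals. Its quartiles were 33.3% and 63.2%, and 80% of the values lay between 20% and 75.5%. The part left free of H3K36me3 had a median length of 3.8 kb (quartiles 2.60 and 5.20 kb).

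Intervals marked on both sides fell into 2 kinds. In 2124 of the 2984 (71.2%) the H3K36me3 on the sides belonged to different domains, and in 860 (28.8%) 1 domain ran across the whole interval. The first kind was wider, with a median of 7.60 kb, and had a median of 2.80 kb of H3K4me3 free of H3K36me3. In 227 of them no H3K36me3 lay under the interval at all. The intervals crossed by 1 domain had a median width of 5.80 kb and lay a median of 8.20 kb from the nearest end of that domain (quartiles 3.0 and 17.0 kb).

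Over all WT intervals H3K36me3 covered 33.6% of the summed length under H3K4me3 and 25.5% of the summed 10-kb flanks, a ratio of 1.32. Wide intervals weigh more in the first value, while flanks count alike for every interval. The cover under H3K4me3 was 5.39% at 2 kb or less, 15.5% at 2 to 6 kb, 36.2% at 6 to 12 kb and 53.5% over 12 kb. The ratio therefore does not show whether H3K36me3 was denser under a typical interval than beside it. For intervals marked on both sides it covered 70.1% of the length under H3K4me3 and 79.5% of the flanks, a ratio of 0.882. For intervals marked on 1 side it covered 40.3% of the length under H3K4me3, 75.6% of the marked flank and, by the rule that made the class, none of the other flank. The classes were made from H3K36me3 in these flanks, so the ratio of cover under H3K4me3 to the flanks is not compared between them.

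Away from the H3K4me3 edge the cover by H3K36me3 changed slowly. On the marked edge of intervals marked on 1 side it was 70.2% in the first kb and rose to 78.1% at 9 to 10 kb. It then fell to 61.3% at 20 to 21 kb, 42.8% at 50 to 51 kb and 31.7% at 99 to 100 kb. On the other edge it was 12.3% at 20 to 21 kb, 22.1% at 50 to 51 kb and 23.7% at 99 to 100 kb, so that the edges remained apart at 100 kb. Intervals with H3K36me3 on neither side reached 17.8% at 99 to 100 kb. These classes were made from the WT H3K36me3 list within 10 kb, which fixes that part of the curves. The H3K36me3 list of KO cells, which took no part in the classes, gave 70.2% in the first kb on the marked edge and 3.34% on the other edge of the same intervals, and 2.81% for those marked on neither side. In the KO list the cover on the marked edge rose to 75.7% at 8 to 9 kb.

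**Figure D2:**
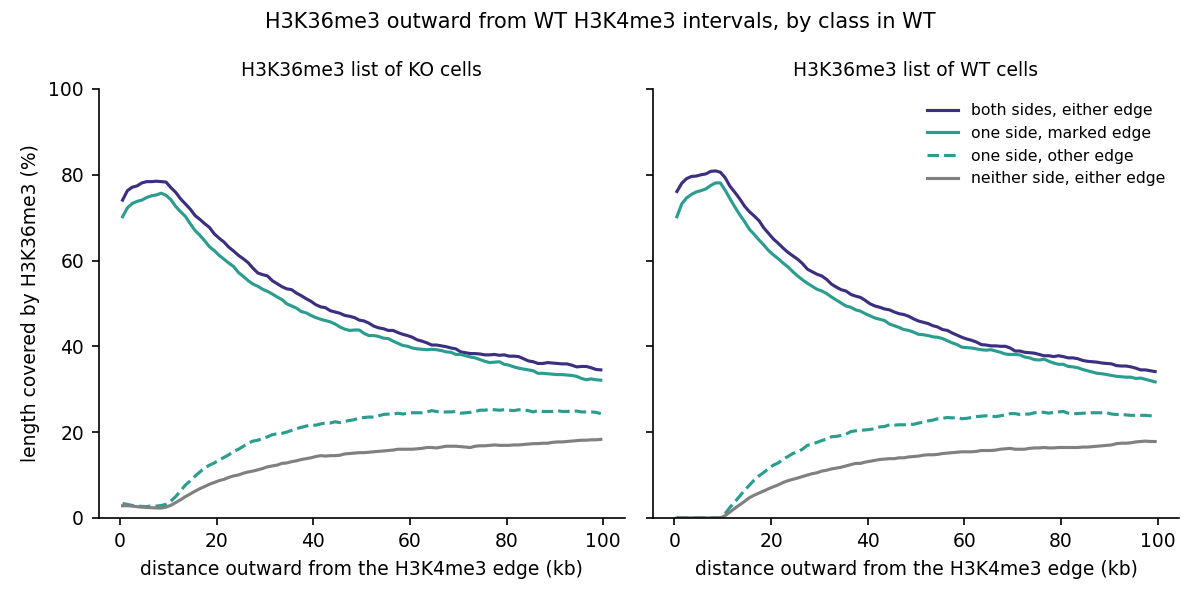
Percent of length covered by H3K36me3 in 1-kb steps outward from the edge of WT H3K4me3 intervals to 100 kb, in the H3K36me3 list of KO cells (left) and of WT cells (right); lines are the classes made from the WT list within 10 kb, with the marked and the other edge of intervals marked on one side drawn apart. The bend at 10 kb follows from the class limit, and the KO list shows the same order of the lines.

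The side on which H3K36me3 lay was held in the KO libraries. Of the 6297 WT intervals marked on 1 side that were also found in the KO H3K4me3 list, 5494 (87.2%, 86.4% to 88.0%) had KO H3K36me3 on the same side only, 394 on both sides, 399 on neither side, and 10 on the other side only. Of 2634 such intervals marked on both sides 90.5% kept both, and of 7425 marked on neither side 89.2% had neither in KO. Of all 200-bp windows, 5.22% had KO H3K36me3 on 1 side, 11.9% on both sides and 82.9% on neither. The share for neither side was thus near that of windows. In all, 14497 of 16356 intervals (88.6%) had the same sides, and 6620 of the 14497 were marked on neither side.

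The KO pair of lists, 17825 H3K4me3 and 17800 H3K36me3 intervals, showed the same arrangement with somewhat more contact. H3K36me3 lay on both sides of 17.2% of H3K4me3 intervals in KO cells and 15.5% in WT cells, on 1 side of 37.7% in KO cells and 34.7% in WT cells, and on neither side of 45.2% in KO cells and 49.7% in WT cells. In windows the KO list gave 11.9% on both sides, 5.22% on 1 side and 82.9% on neither, close to the WT list. The differences between the pairs exceeded the counting error. With 1 library for each list a difference between libraries cannot be told apart from one between genotypes. The KO H3K4me3 list held fewer and narrower intervals, with a median width of 5.20 kb in KO cells and 5.40 kb in WT cells. Among intervals marked on 1 side and covered in part by a single domain, the median share covered was 54.8% in KO cells and 49.0% in WT cells. The part left free had a median of 3.0 kb in KO cells and 3.8 kb in WT cells.

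H3K4me3 intervals with H3K36me3 beside them were wider. The median width was 7.40 kb (7.20 to 7.40 kb) with H3K36me3 on both sides, 6.80 kb (6.80 to 7.0 kb) with it on 1 side and 3.6 kb with it on neither. Read the other way, 84.3% of the 2936 intervals of 2 kb or less had H3K36me3 on neither side, against 60.8% of those over 2 to 6 kb, 28.3% of those over 6 to 12 kb and 16.6% of the 1597 over 12 kb. The share marked on both sides was 6.74% at 2 kb or less, 10.8% over 2 to 6 kb, 21.1% over 6 to 12 kb and 33.3% over 12 kb. Width also adds to overlap by itself, as a wider interval meets more of any list.

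Overlap with the MINA list of WT cells, which 3.94% of all windows lay in, followed the same classes. MINA was found at 75.7% of H3K4me3 intervals marked on both sides (74.2% to 77.2%), 76.5% of those marked on 1 side (75.5% to 77.5%) and 37.2% of those marked on neither (36.2% to 38.1%). The shares also differed by width. At 2 kb or less the share was 14.1% with H3K36me3 on both sides, 12.5% with it on 1 side and 5.58% with it on neither. Over 12 kb the share was 98.9% with H3K36me3 on both sides, 96.8% with it on 1 side and 97.7% with it on neither. At 6 to 12 kb it was 91.5% for both sides, 86.6% for 1 side and 76.8% for neither. At 2 to 6 kb it was 51.1% for both sides, 62.5% for 1 side and 34.9% for neither, so the intervals without H3K36me3 were lowest and those marked on 1 side highest. The antibody also gave intervals in KO cells, which lack mdig. In the MINA list of KO cells, which held 1.18% of windows, overlap was 53.1% for both sides, 47.8% for 1 side and 14.0% for neither. MINA of WT cells without MINA of KO cells was found at 24.2% of intervals marked on both sides, 30.9% of those marked on 1 side and 25.5% of those marked on neither. These shares have all intervals of a class below the line, those with MINA of KO cells included. Among the intervals without MINA of KO cells, MINA of WT cells was found at 51.5% of 1400 marked on both sides (48.9% to 54.1%), 59.3% of 3485 marked on 1 side (57.6% to 60.9%) and 29.7% of 8217 marked on neither (28.7% to 30.7%).

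**Figure D3:**
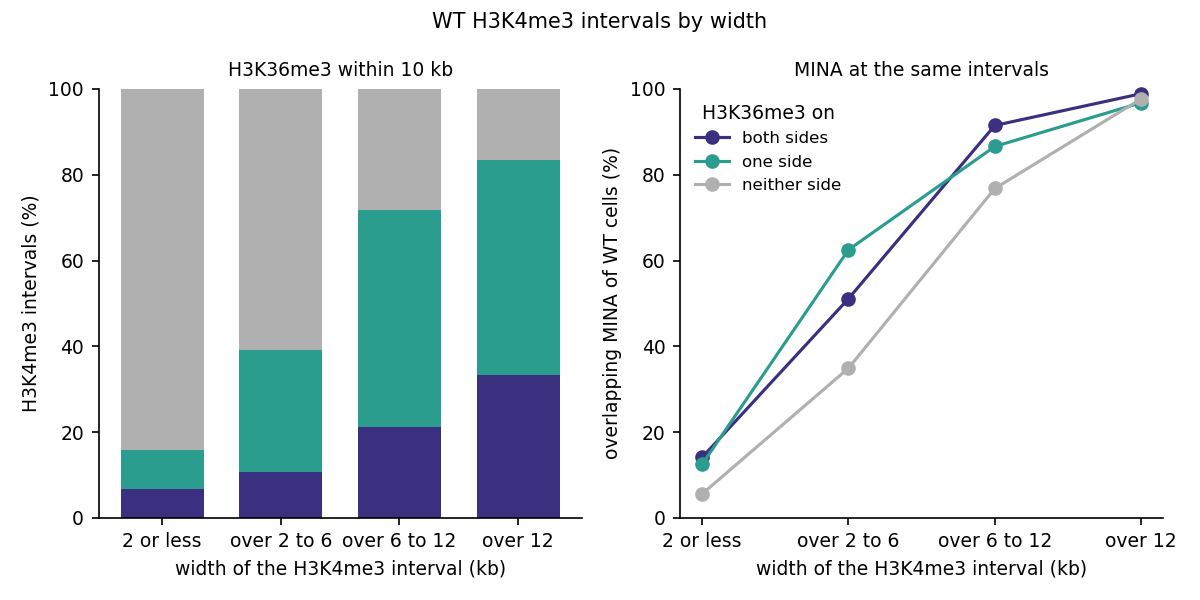
WT H3K4me3 intervals by width class in kb: the share (%) with H3K36me3 within 10 kb on both sides, one side or neither side (left, stacked from 0 to 100), and the share (%) overlapping the MINA list of WT cells in each of these classes (right). Intervals without H3K36me3 made up 84.3% of the narrowest and 16.6% of the widest class, and MINA reached over 96% in all 3 classes above 12 kb.

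Pooled over widths, H3K9me3 lay below and H4K20me3 above its share of windows in each class. A window is narrower than these intervals, which at equal density would meet more of any list. H3K9me3 of WT cells, with 8.40% of windows, overlapped 4.22% of the intervals marked on both sides, 5.84% of those marked on 1 side and 6.42% of those marked on neither. H4K20me3 of WT cells, with 2.21% of windows, overlapped 9.05% of those marked on both sides, 11.2% of those marked on 1 side and 10.7% of those marked on neither. Within each width class H3K9me3 was lower for both sides than for neither. It was 1.01% for both sides and 3.68% for neither at 2 kb or less, and 3.41% and 7.02% at 2 to 6 kb. At 6 to 12 kb it was 4.95% and 7.38%, and over 12 kb 4.89% and 14.0%. H4K20me3 was also lower for both sides than for neither in each width class. It was 5.56% and 7.68% at 2 kb or less, and 14.1% and 19.2% over 12 kb. The 860 H3K4me3 intervals crossed by 1 H3K36me3 domain overlapped H3K9me3 in 2.44% (1.60% to 3.70%), and the wider ones between different domains in 4.94%.

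Whether a WT H3K4me3 interval was found in the KO H3K4me3 list, which held 3.36% of windows, also went with the sides. The share was 88.3% (87.1% to 89.4%) for intervals marked on both sides, 94.4% (93.8% to 94.9%) for those marked on 1 side and 77.7% (76.9% to 78.6%) for those marked on neither. Within widths the order was another. At 2 kb or less the share was 38.9% for both sides, 47.7% for 1 side and 49.0% for neither, and at 2 to 6 kb it was 77.0% for both sides, 91.1% for 1 side and 83.6% for neither. The share for both sides thus lay below that for neither at each width up to 6 kb, and above it when all widths were pooled. Among intervals over 6 to 12 kb all 3 shares lay between 97.6% and 99.1%. Intervals crossed by 1 domain were found in 74.7% of cases and those between different domains in 93.8%.

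Seen from H3K36me3, 7660 of the 17507 WT domains (43.8%, 43.0% to 44.5%) had no H3K4me3 within 10 kb, where 85.2% of all windows had none. They held 31.2% of the 327.9 Mb covered. A further 6725 domains had exactly 1 H3K4me3 interval within 10 kb and 3122 had more. Domains without H3K4me3 had a median width of 8.40 kb (8.20 to 8.60 kb) and those with H3K4me3 one of 15.0 kb (14.6 to 15.4 kb), a ratio of 0.560. Domains with more H3K4me3 intervals were wider, with medians of 12.6 kb for 1, 20 kb for 2, 30.8 kb for 3 and 51.8 kb for 4 or more. Wider domains offer more room for an H3K4me3 interval, so number and width are tied by construction. The share without H3K4me3 was 63.3% among domains of 5 kb or less, 47.2% over 5 to 20 kb, 27.5% over 20 to 50 kb and 19.9% over 50 kb.

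Many of the domains without H3K4me3 lay in a longer run of domains. Another H3K36me3 domain lay within 10 kb of 81.6% of them (80.7% to 82.4%) and of 67.6% of domains with H3K4me3. Over all domains of each kind, the space to the nearest other domain had a median of 1.60 kb without and 3.40 kb with H3K4me3. When domains with spaces under 10 kb were joined into chains, 3297 of the 7660 (43.0%) belonged to a chain that had H3K4me3 within 10 kb. Of the 8625 chains 27.3% (26.4% to 28.3%) had none. The nearest H3K4me3 to a domain without it lay at a median of 38.6 kb (quartiles 21.4 and 69.4 kb). It lay at 10 to 20 kb in 1701 cases, at 20 to 50 kb in 3000, at 50 to 200 kb in 2790 and farther in 169.

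Domains next to the limit of 10 kb were alike on both sides of it. The 371 domains with the nearest H3K4me3 at 8 to 10 kb had a median width of 9.80 kb, and 8.63% of them overlapped MINA of WT cells. The 376 with it at 10 to 12 kb had a median of 10.0 kb and 8.78%. The 317 H3K4me3 intervals with H3K36me3 at 8 to 10 kb had a median width of 5.00 kb, and the 316 at 10 to 12 kb one of 5.10 kb.

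Domains without H3K4me3 overlapped the other antibodies at shares near those of windows or below them. MINA of WT cells overlapped 3.37% of domains without and 54.6% of domains with H3K4me3, against 3.94% of windows. H4K20me3 of WT cells overlapped 2.08% of domains without and 8.58% of domains with H3K4me3, against 2.21% of windows. For domains without H3K4me3 this share did not differ from that of windows beyond counting error (1.78% to 2.42%). H3K9me3 of WT cells overlapped 6.83% of domains without and 8.24% of domains with H3K4me3, against 8.40% of windows. The domains with H3K4me3 were the wider ones, and a domain of either kind is far wider than a window, so that at equal density it would meet more of any list. Of the domains without H3K4me3 76.1% were found in the KO H3K36me3 list, which held 10.8% of windows, against 92.8% of those with it. At 5 kb or less it was 58.4% of domains without and 77.0% of domains with H3K4me3, and over 20 kb 97.0% of domains without and 99.1% of domains with it. The KO H3K4me3 list placed an interval within 10 kb of only 80 of the 7660 (1.04%, where 13.5% of windows had one). In nearly all cases neither list thus held an H3K4me3 interval there, which does not show that the mark was absent.

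In domains over 20 kb H3K4me3 covered more of the ends than of the rest. In KO cells it covered 17.3% of the first 10 kb inside the ends and 4.58% of the length between them, and in WT cells 17.7% of the first 10 kb and 4.33% of the length between, a ratio of 3.78 in KO cells and 4.10 in WT cells. Of 5158 WT domains over 20 kb, 2437 (47.2%, 45.9% to 48.6%) had H3K4me3 within 10 kb of 1 end, 1358 (26.3%) at both ends, 1319 (25.6%) had none and 44 had it in the middle only. In domains with H3K4me3 at 1 end it was the end of lower coordinates in 50.8% (48.9% to 52.8%), and a further interval lay in the middle in 11.6%. An end takes in 10 kb on either side of it, which leaves a short middle in most of these domains and bears on the count of 44. The median width was 35.2 kb with H3K4me3 at 1 end, 36.2 kb at both ends and 31.0 kb with none. In the KO pair 48.2% had H3K4me3 at 1 end, 26.0% at both ends and 24.9% none, each inside the confidence interval of the WT share.

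**Figure D4:**
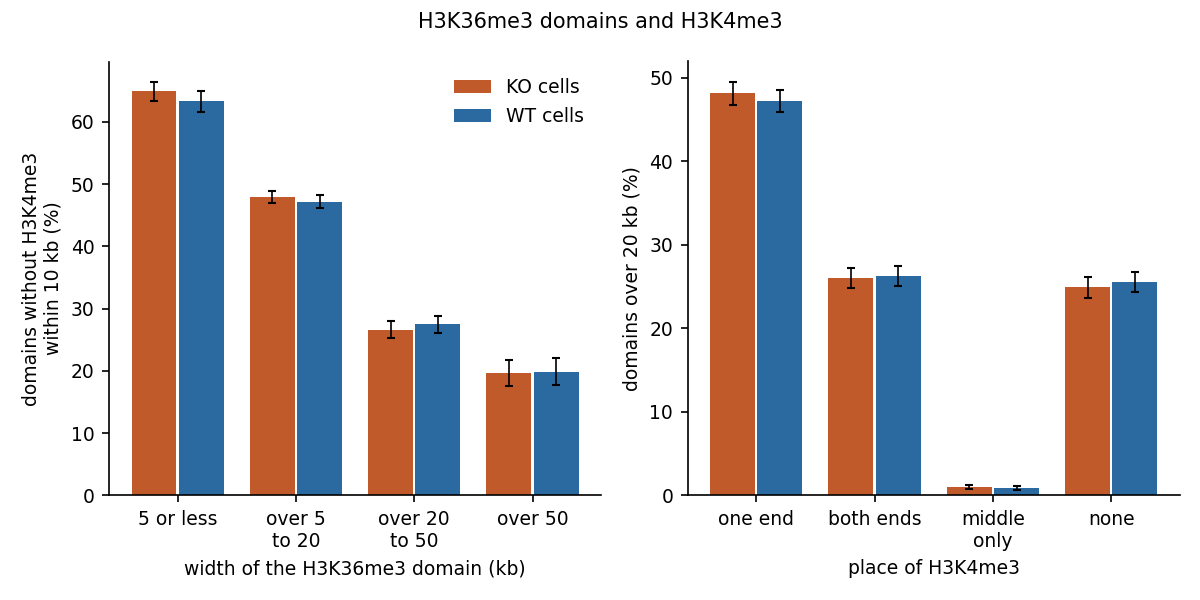
Left, the share (%) of H3K36me3 domains without H3K4me3 within 10 kb by domain width in kb; right, the place of H3K4me3 in domains over 20 kb (%); KO cells are left of WT cells in each pair and error bars are 95% Wilson intervals for counting error. The share without H3K4me3 was 64.9% in KO cells and 63.3% in WT cells among the narrowest domains and 19.6% in KO cells and 19.9% in WT cells among the widest. An end takes in 10 kb on either side of it, so the middle is the shorter stretch in most domains shown on the right.

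The spaces between neighbouring H3K4me3 intervals were described in the same way. Their ends are the same 10-kb flanks that made the side classes, so these counts are no separate evidence for the arrangement. Of 14020 spaces over 20 kb in WT cells, 2289 (16.3%) had H3K36me3 within 10 kb of both ends, 3822 (27.3%) of 1 end and 7909 (56.4%) of neither. Spaces marked at both ends were shorter, with a median of 48.0 kb, against 99.5 kb for spaces marked at 1 end and 94.4 kb for those marked at neither. H3K36me3 covered a median of 89.3% of a space marked at both ends, and in 971 of them it was 1 domain. Of the summed length of these spaces it covered 55.9% in KO cells and 66.7% in WT cells, and the widest of them was 8.99 Mb in KO cells and 2.43 Mb in WT cells. Of the spaces marked at neither end only 689 held any H3K36me3. In KO cells 17.8% of 13293 spaces were marked at both ends, with the same median cover of 89.3%.

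The chromosomes differed in both measures. The share of H3K4me3 intervals with H3K36me3 on both sides was highest on chromosomes 19 (27.8%), 16 (24.4%) and 17 (24.2%). It was lowest on chromosomes X (8.68%), 4 (8.71%) and 18 (8.75%), whose confidence intervals overlapped. The share of H3K36me3 domains without H3K4me3 was highest on chromosomes 13 (61.8%), 18 (56.6%) and 4 (55.2%) and lowest on 19 (9.77%, 7.88% to 12.1%), 20 (23%) and 17 (26.1%), and on X it was 52.3%. These shares went with how dense the marks were. Chromosome 19 had 17.2 H3K4me3 intervals per Mb and 26.0% of its span inside H3K36me3, and X had 3.72 per Mb and 4.12%. Over the 23 chromosomes of this library pair the share marked on both sides and the span inside H3K36me3 had a Pearson r of 0.87 and a Spearman rho of 0.88. For the share of domains without H3K4me3 and the density of H3K4me3, r was -0.87 and rho -0.82. Both are descriptions, as each relation uses the same list on both axes.

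On chromosome 15 the share of H3K4me3 intervals marked on both sides was 17.5% (14.8% to 20.7%) in KO cells and 10.7% (8.44% to 13.4%) in WT cells. On chromosome 7 the shares were 16.1% (14.0% to 18.6%) in KO cells and 11.1% (9.31% to 13.2%) in WT cells. The KO H3K36me3 list covered 1.43 times the WT length on chromosome 15 and 1.12 times on chromosome 7, and the part of this in the shares was not tested. It covered 1.22 times the WT length on chromosome 9 and 1.15 times on X, where the confidence intervals of KO and WT cells overlapped. The KO H3K4me3 list covered 1.14 times the WT length on chromosome 15 and 0.952 times on chromosome 7. Chromosomes 15 and 7 were named after their values were seen.

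**Figure D5:**
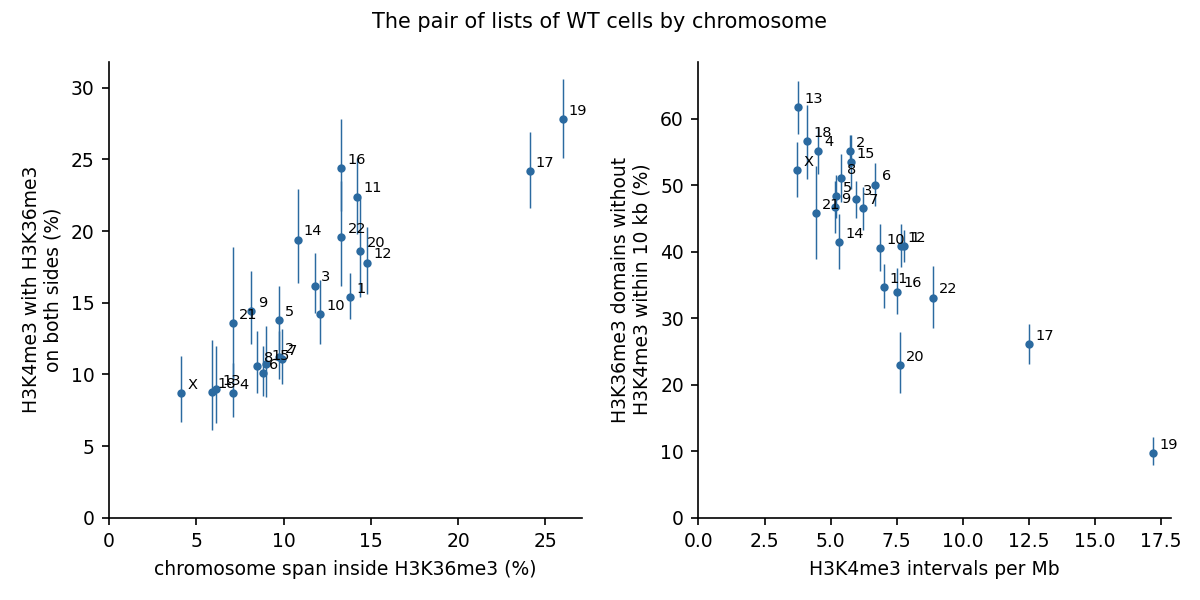
One point per chromosome for the lists of WT cells: the share (%) of H3K4me3 intervals with H3K36me3 on both sides against the percent of the chromosome span inside H3K36me3 (left), and the share (%) of H3K36me3 domains without H3K4me3 within 10 kb against H3K4me3 intervals per Mb (right); vertical lines are 95% Wilson intervals for counting error. Chromosome 19 lies at one extreme in both, with 27.8% and 9.77%.

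The widest WT H3K36me3 domain without H3K4me3 within 10 kb spanned 242 kb on chromosome 8 from 141665601 to 141907200, and the nearest H3K4me3 lay 16.6 kb away. The next spanned 209 kb on chromosome 17 from 35438601 to 35647600, with H3K4me3 at 63.2 kb and another H3K36me3 domain 0.800 kb away. The third spanned 182 kb of chromosome 3 (171939201 to 172121400), with H3K4me3 at 51.8 kb. The fourth spanned 154 kb of chromosome 11 (19882601 to 20036400), with H3K4me3 at 80.6 kb, and the fifth 140 kb of chromosome 16 (16100801 to 16241000), with H3K4me3 at 51.4 kb. Another H3K36me3 domain lay 1.00 kb from the third, 0.800 kb from the fourth and 8.80 kb from the fifth. All 5 overlapped H3K36me3 of KO cells and no H3K4me3 of KO cells, and of the 5 the one on chromosome 16 alone overlapped MINA of WT cells. The domains on chromosomes 3 and 16 also overlapped H3K9me3 in KO cells and in WT cells.

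The widest H3K4me3 interval with H3K36me3 on both sides spanned 66.2 kb on chromosome 1 from 153902001 to 153968200, of which 57.6 kb lay under 5 H3K36me3 domains. The next 4 of that class, found on chromosomes 11, 19, 19 and 16, were 57.6 to 62.8 kb wide, with 7.60 to 51.4 kb under H3K36me3. The widest with H3K36me3 on 1 side spanned 104 kb on chromosome 9 from 140050601 to 140154600, with 49.0 kb under H3K36me3 and the nearest H3K36me3 on the other side at 42.4 kb. Behind it came 4 intervals of 63.4 to 75.8 kb on chromosomes 11, 19, 20 and 8. In the KO list 3 of the 5 widest of the class marked on both sides, and 4 of the 5 marked on 1 side, overlapped 3 H3K4me3 intervals. These were picked as the widest single intervals of the WT list, which favours narrower or split intervals in any other list.

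The widest intervals with H3K36me3 on neither side were a special case of the measure, since H3K36me3 lay under them and ended before their edges. The widest spanned 72.2 kb on chromosome 16 from 673801 to 746000 and had 50.2 kb under 4 H3K36me3 domains, with the next H3K36me3 at 22.2 and 32.2 kb. Chromosomes 7, 1, 1 and 11 held the other 4, which were 40.6 to 55.2 kb wide and had 19.8 to 39.2 kb under H3K36me3. In the whole class such overlap was found in 140 of 9552 intervals, or 1.47%.

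The H3K4me3 interval farthest from H3K36me3, of 1.00 kb on chromosome 9 from 45729001 to 45730000, lay 7330 kb from it. The next, of 4.80 kb on chromosome 5 from 25188801 to 25193600, lay 6210 kb away and overlapped MINA of WT cells. The third, of 1.20 kb on chromosome 21 from 9967601 to 9968800, lay 5780 kb away. All 3 were found in the KO H3K4me3 list. All 3 also overlapped H3K9me3 of KO cells and none of WT cells, and the one on chromosome 9 overlapped H4K20me3 of KO cells. Among the 3948 WT H3K4me3 intervals over 100 kb from H3K36me3, 71.4% (70.0% to 72.8%) were found in the KO list and 24.0% overlapped MINA of WT cells. H3K9me3 overlapped 9.42% of the 3948 in KO cells and 5.57% in WT cells.

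The H3K36me3 domains with the most H3K4me3 intervals within 10 kb had 6, 6 and 5. The first was 68.8 kb wide (chromosome 5, 140019201 to 140088000), the second 144 kb (chromosome 9, 130186801 to 130331000) and the third 66.8 kb (chromosome 3, 11239601 to 11306400). In the KO list H3K36me3 lay over each of the 3 as 2 domains. Over the first domain lay 3 H3K4me3 intervals of the KO list and 4 of the WT list, over the second 5 of the KO list and 4 of the WT list, and over the third 1 of the KO list and 3 of the WT list.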

How the data were processed

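ChIP-seq intervals of MDA-MB-231 cells were analysed as deposited. The submitters' processing notes name BWA, SICER version 1.1 and the build hg19. Per the file headers the deposited file holds 1 interval list for each ChIP library and a merged list, which was not used. Each interval is a start and an end in bp on a 200-bp grid, with no score, height or p-value, so the threshold could not be raised. The caller's settings, and whether the input entered the calls, were not given in the sources used here. Coordinates are 1-based on hg19. The input library was not used here.

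Gaps, overlaps and sides were computed in Python 3.11.15 with scipy 1.17.1 and numpy 2.4.6, and plotted with matplotlib 3.10.9. A neighbour within 10 kb has a gap below 10 kb. The steps were tested on simulated data, and the 2 counts compared with bedtools 2.31.1 were the same. Windows of 200 bp over the 3034 Mb spanned by the lists gave the background shares. They are narrower than the intervals, so they are no expectation for them. Alternatives were other reaches (5 and 20 kb), merging within 5 kb, intervals of at least 2 kb, autosomes only, 50% overlap of the shorter interval, and interval centres. Regions were named by rank of width, gap or count. The members, classes and naming rules were chosen with earlier results of these data known.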

Additional observations from a re-analysis of the deposited data

How the results depend on the processing

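No paired analysis was possible because each antibody and genotype has 1 library. With autosomes only, none of the 12 results moved beyond counting error. With intervals of at least 2 kb, the share of H3K4me3 intervals overlapping H3K36me3 became 44.1%, and the shares with H3K36me3 on both sides, 1 side and neither side 16.8%, 38.6% and 44.6%. The median gap became 39.2 kb, the share of domains without H3K4me3 44.9%, the ratio of cover under H3K4me3 to the flanks 1.22, and the difference in MINA overlap between intervals marked on both sides and on neither 33.3 percentage points, against 38.6. Merging H3K36me3 within 5 kb gave 32.1% of domains without H3K4me3, a width ratio of 0.423 and a cover ratio of 1.36. With a reach of 5 kb the shares on both sides, 1 side and neither side were 12.5%, 32.7% and 54.8%, domains without H3K4me3 50%, the MINA difference 36.3 points and the difference in the share found in KO 8.79 points, against 10.5, both pooled over widths. With 20 kb there were 20.7% on both sides, 36.9% on 1 side, 42.4% on neither side and 34.0% of domains without H3K4me3, the MINA difference was 40.9 points, the difference found in KO 12.3 points, and the width ratio of intervals marked on both sides to 1 side 1.09, equal to the value with 10 kb at this precision. A 50% overlap of the shorter interval gave 24.9% of H3K4me3 intervals on H3K36me3. From the interval's centre the median gap was 51.6 kb and the side shares 25.8%, 22.8% and 51.4%, which turned the order of both sides and 1 side. For the results that are a ratio or a difference, no direction reversed under these alternatives. A share alone has no such direction, and a split by width was not among the alternatives. In that split the share found in KO was lower for both sides than for neither up to 6 kb. Causes of these shifts were not tested. Without scores or depth, the lists cannot show weak marks, and a missing interval is not an absent mark.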
